A study of Mus musculus with 4 samples.

Results

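Ribosomal protein genes were followed across 4 tissues of the embryonic mouse jaw and tongue. The members were chosen by name: every gene whose array symbol follows the Rpl, Rps, Rpsa, Rplp, Mrpl or Mrps pattern, each represented by its brightest probe over the 4 arrays. This gave 161 genes (301 probes) of 24812 genes with a current RefSeq symbol, 84 of them in the cytosolic set and 77 in the mitochondrial set. The rule itself uses names only, although the gene groups were chosen with earlier results of these data known.

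RNA came from pooled embryos of the outbred ICR stock, with 1 pool and 1 single-colour Agilent array per tissue and all 4 arrays on 1 slide. The earliest tissue, MMA, was the median part of the mandibular arch, taken from 12 embryos at E9.5. Both E11.5 tissues came from 4 embryos each and were the lateral lingual swellings (LLS), from which much of the tongue forms, and the lateral part of the arch (LMA). The latest tissue, T, was median tongue of 4 embryos at E14.5. The labels name no treatment and no engineered allele in any pool. Except between LLS and LMA, stage and region change together, so they cannot be told apart. With 1 array per tissue there is no spread between replicates, so no difference below has a test or a p-value and each describes these pools only.

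Cytosolic ribosomal proteins are encoded in the nucleus and build the ribosome that translates nearly all cellular mRNA. Mitochondrial ribosomal proteins are also encoded in the nucleus, are imported, and build the separate ribosome that translates the few respiratory chain subunits encoded by mitochondrial DNA. Ribosome production is among the largest investments of a dividing cell, and it is driven by growth regulators such as Myc and mTOR.

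Several members have a close paralog, so the brightest probes of each pair are shown first. Each line gives 30 of the 60 bases of the brightest probe, 5′ to 3′ as in the deposited arrays, and capitals mark the longest run of bases that the paralog probe shares with the brightest probe of its parent gene.
Rpl39l: cattcagcagttCAGTAAtaaatatgtgaa
Rpl39: gtgttttgaattaggatgtttgtcCAGTAA
Rps4l: tgaAGTGGActctgagggacattgcgggga
Rps4x: gggtgacaaaccAGTGGAtctctcttccca
Rpl22l1: caGAGTCtgaggactaattggcctctgctt
Rpl22: aacctcggcggagGAGTCgtgaccatcgaa
Rps27l: AAAGCCaggctcacagaaggctgttcattt
Rps27: cactgAAAGCCcctgattgaagatgagtgg
Rpl7l1: gggcaagcaaagATTAACAataagacagtc
Rpl7: aacaaggcttcaATTAACAtgctgcggatt
The shared runs are 5 to 7 bases long, also against every other probe of the parent gene. The probes were not compared with whole parent transcripts, so whether a paralog probe also binds parent RNA was not tested. Near-identical processed pseudogenes are a separate matter: the array headers place 7 of the 182 cytosolic probes, and none of the 119 mitochondrial probes, on a chromosome other than that of the gene. They include the brightest probes of Rps27 (placed on chromosome 9, gene on chromosome 3) and of Rps29 (placed on chromosome 2, gene on chromosome 12). Their signals may therefore hold RNA of copies. The paralog Rps27l is also on chromosome 9, and whether the Rps27 probe reads Rps27l RNA was not tested.

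Levels below are log2 signal relative to the 75th percentile of the array, and differences are log2, the first tissue minus the second. Signals quoted for single genes are not scaled, whereas every difference is taken after scaling. A probe not well above background was raised to the lowest well-above-background level of its array where it lay below that level. Of the 84 cytosolic genes, 82 were compared, since Rpl10l and Rpl3l were not well above background in any tissue. All 77 mitochondrial genes were compared. Among 65 member probes printed 10 times per array, the SD of a difference between single spots was 0.054 to 0.059, which covers spot error but neither the labelling nor the pools.

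The 2 sets differed in how they ran through the tissues. Cytosolic genes stood highest in MMA for 60 of 82 genes and in T for 22, and lowest in LMA for 73, where the shares of all genes were 37.7%, 31.5% and 25.5%. Mitochondrial genes stood highest in MMA for 68 of 77 genes, and lowest in T for 42 and in LMA for 33, where 35.4% of all genes were lowest in T. Relative to each gene's own mean over the tissues, the cytosolic median was 0.19 (MMA), 0.06 (LLS), -0.32 (LMA) and 0.05 (T). The mitochondrial median was 0.41 (MMA), 0.02 (LLS), -0.19 (LMA) and -0.25 (T). In bulk tissue, fewer cells of a type and less RNA per cell cannot be told apart. The tissue at the top depended on the scaling for the cytosolic set: T was highest for 39 genes after quantile normalization and for 69 after cyclic loess, while MMA was highest for 18 and 5. LMA was the lowest cytosolic tissue for 33 genes after quantile normalization and for 36 after cyclic loess, which placed as many lowest in MMA. For the mitochondrial set MMA remained the most frequent highest tissue, for 49 genes after quantile normalization and 52 after cyclic loess.

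**Figure D1:**
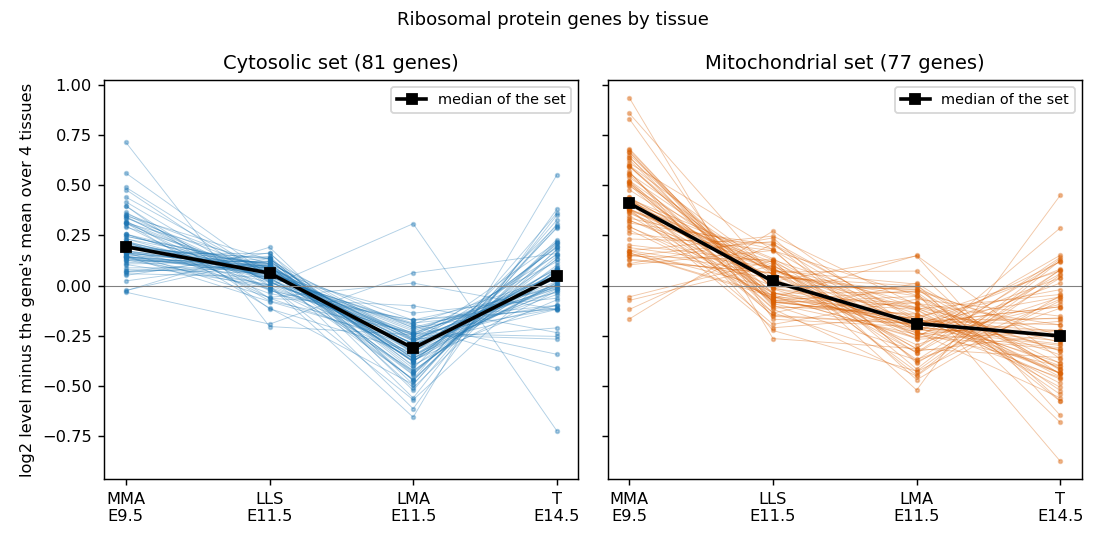
Each thin line is 1 gene, plotted as its log2 level minus its own mean over the 4 tissues, for the members well above background on all 4 arrays (81 cytosolic genes on the left, 77 mitochondrial genes on the right), and the black line is the median. The cytosolic lines dip in LMA, and the mitochondrial lines start high in MMA and are low in LMA and T.

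In T against MMA, the mitochondrial set was lower and the cytosolic set moved little. The mitochondrial median difference was -0.63, and 71 of 77 genes were lower, against 54.5% of all 16632 genes compared. At 1.5-fold, 41 mitochondrial genes were lower and 0 higher, where 27.3% of all genes were lower and 26.3% higher. At 2-fold, 20 were lower, against 14% of all genes. That 2-fold count was 3 after quantile normalization, 1 after cyclic loess, 4 with the percentile of detected probes and 3 in the deposited value table. The cytosolic median was -0.15, with 6 genes at least 1.5-fold lower and 1 higher. That cytosolic median turned positive under 4 of 7 alternatives (quantile normalization, cyclic loess, the percentile of detected probes and the deposited value table), whereas the mitochondrial median stayed between -0.63 and -0.25 in all 8 settings.

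Brightness bears on these values, because the cytosolic probes are among the brightest on the arrays. Each set was therefore also read against all other genes whose mean level lay between the 10th and 90th percentile of the set, 196 genes for the cytosolic and 3932 for the mitochondrial set. Their median T minus MMA difference was -0.26 for the cytosolic window and -0.37 for the mitochondrial window. The cytosolic median was thus 0.11 above other genes of its brightness and the mitochondrial median 0.26 below. Across the 8 settings these distances lay between 0.07 and 0.11 for the cytosolic set and between -0.28 and -0.19 for the mitochondrial set. Not all settings could alter them. Another percentile shifts a set and its window alike, so it left 0.11 and -0.26 unchanged, as did leaving out the floor. The deposited value table (0.07 and -0.19) nearly repeated quantile normalization (0.08 and -0.19). Under the settings that could alter the distances, their signs stayed the same. Of the 3932 genes in the mitochondrial window, 2751 were lower in T than in MMA. At 2-fold, 733 of them were lower and 244 higher. No cytosolic gene except Rps4l falls inside the mitochondrial window, so the sets cannot be compared at equal brightness.

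**Figure D2:**
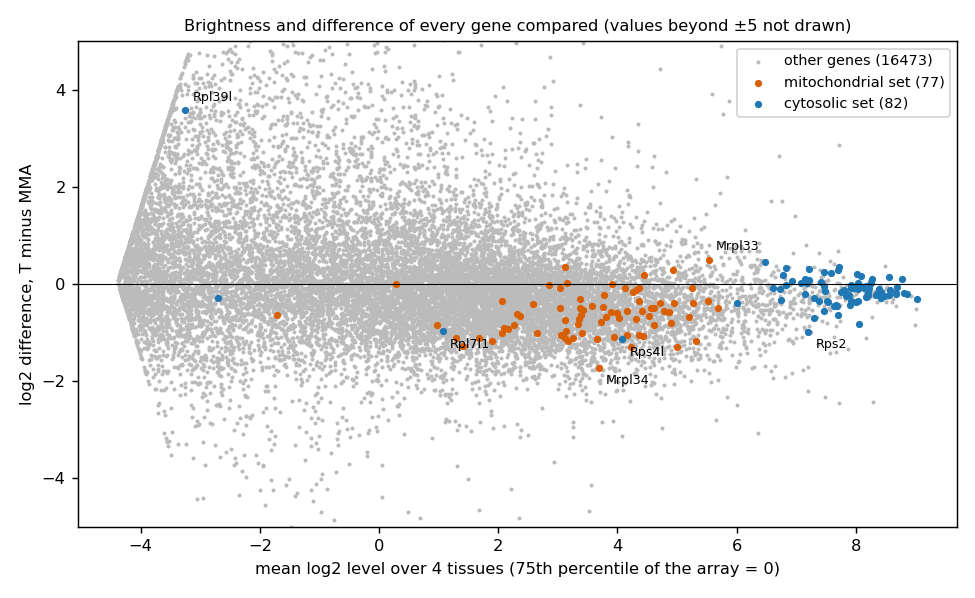
The mean log2 level over 4 tissues (x) is plotted against the T minus MMA difference (y) for every gene compared, with other genes in grey, the mitochondrial set in orange and the cytosolic set in blue. The cytosolic set lies at the bright end close to 0, the mitochondrial set mostly below 0, and Rpl39l apart at 3.58.

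T and LLS differed less. The cytosolic T minus LLS median was 0.00, with 41 genes higher and 41 lower, against 44.5% and 55.5% of all genes, and the mitochondrial median was -0.28, with 62 of 77 genes lower. Other genes of mitochondrial brightness were also lower, with a median of -0.23, so that the mitochondrial set lay -0.04 from them (-0.05 to -0.02 over the 8 settings), and the cytosolic set lay 0.11 above its window. At 1.5-fold, 6 mitochondrial genes and 1 cytosolic gene (Rps4l) were lower, where the share of all genes was 17%, and 0 mitochondrial genes and 1 cytosolic gene (Rpl39l) were higher, where it was 20.3%. Both shares lie below the background.

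Both E11.5 tissues were also compared with MMA, from which they differ in stage and in region. In LLS minus MMA the mitochondrial median was -0.42 and 69 of 77 genes were lower, against 54.4% of all genes. At 1.5-fold, 24 mitochondrial genes were lower and 0 higher, where the shares of all genes were 16.3% and 17.9%, but 4 were lower after quantile normalization and in the deposited value table and 7 after cyclic loess, with 1 higher in each. The cytosolic median was -0.14, with 1 of 82 genes (Rps2) at least 1.5-fold lower, and it turned positive after quantile normalization, after cyclic loess and in the deposited value table. In LMA minus MMA the mitochondrial median was -0.59, with 77 of 77 genes lower, against 56.5% of all genes, and 39 at least 1.5-fold lower, against 20%. The cytosolic median was -0.53, with 80 of 82 genes lower and 33 at least 1.5-fold lower, but after cyclic loess it was -0.01, with 43 genes lower. The counts at least 1.5-fold lower in LMA minus MMA were 9 mitochondrial and 2 cytosolic genes after quantile normalization, and likewise after cyclic loess.
Set against other genes of their brightness, the mitochondrial set lay 0.26 lower in LLS minus MMA and 0.35 lower in LMA minus MMA. The cytosolic set lay 0.07 higher in the first and 0.12 lower in the second. Lower among those other genes were 158 of 196 (cytosolic window) and 2537 of 3932 (mitochondrial window) in LLS minus MMA. In LMA minus MMA, 176 of 196 and 2707 of 3932 were lower.

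The same-stage pair put LLS above LMA for both sets. The cytosolic LLS minus LMA median was 0.37, with 78 of 82 genes higher, against 51.7% of all genes, and the mitochondrial median was 0.19, with 66 of 77 higher. Both medians were positive in all 8 settings, from 0.10 to 0.38 and from 0.06 to 0.19. At 1.5-fold, 7 cytosolic genes (8.29% of all genes were as much higher) and 5 mitochondrial genes were higher, and 0 of either set were lower (7.77% of all genes). Above other genes of its brightness the cytosolic set stood 0.20 higher and the mitochondrial set 0.15 higher. Of those other genes, 158 of 196 in the cytosolic window and 2281 of 3932 in the mitochondrial window were higher in LLS than in LMA. The cytosolic median exceeded the mitochondrial one by 0.18 here, but by only 0.00033 after quantile normalization, so an inequality between the sets is not shown for this pair.

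**Figure D3:**
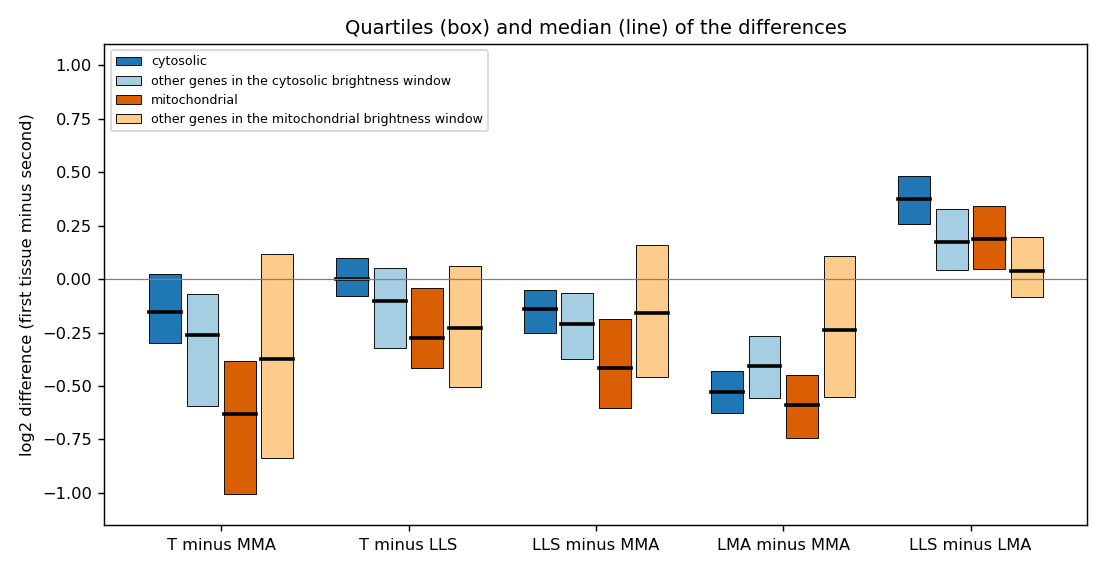
Boxes span the quartiles and black lines mark the median log2 difference of the cytosolic set, other genes of its brightness, the mitochondrial set and other genes of its brightness, for the 5 comparisons on the x axis. The mitochondrial median lies below that of its window in T minus MMA, LLS minus MMA and LMA minus MMA. In LLS minus LMA the medians of both sets lie above those of their windows. The boxes overlap in each case.

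**Figure D4:**
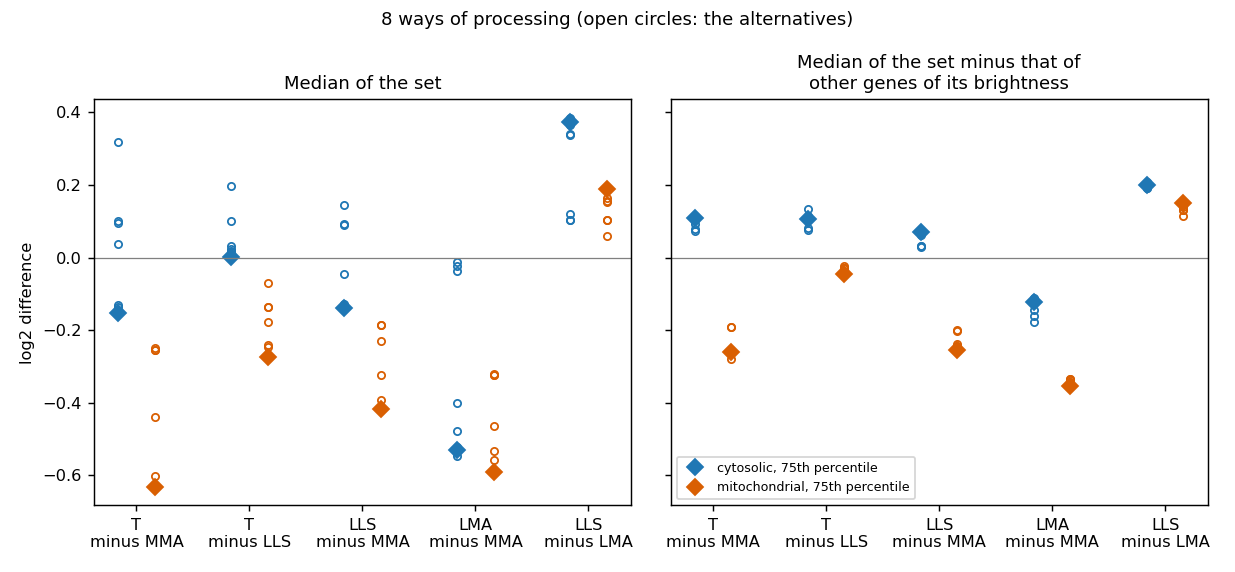
Each symbol is the median log2 difference of a set under 1 of 8 ways of processing (filled diamonds: 75th percentile), on the left as measured and on the right minus the median of other genes of the same brightness. On the left the cytosolic medians spread across 0 in T minus MMA and LLS minus MMA, and on the right no set changes sign in any comparison. The percentile of detected probes shifts a set and its window alike, so it cannot move the values on the right.

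Genes named for the large and for the small subunit moved alike within each set. The grouping follows the symbol alone, and the subunit that holds each protein was not checked. In T minus MMA the median was -0.14 for 49 cytosolic large subunit genes and -0.17 for 33 small subunit genes. It was -0.60 for 48 genes named Mrpl and -0.67 for 29 named Mrps. In LMA minus MMA the cytosolic medians were -0.57 for the large and -0.47 for the small subunit. The 3 brightest cytosolic members were Rpl41, Rps10 and Rps18. Rps18, a small subunit protein, had signals of 254607 (MMA), 257485 (LLS), 229757 (LMA) and 240297 (T). After scaling its difference was -0.41 in LMA minus MMA and -0.30 in T minus MMA, and both had the other sign after cyclic loess, at 0.20 and 0.19.

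Among cytosolic members Rps2, a protein near the mRNA entry of the small subunit, stood apart. Its 10 spots averaged signals of 101816 (MMA), 58286 (LLS), 62982 (LMA) and 60060 (T). MMA was thus the single high tissue, and the difference was -0.98 (spot SE 0.02) in T minus MMA, -0.92 in LLS minus MMA and -0.96 in LMA minus MMA, negative in all 8 settings. A second probe of Rps2 gave -1.32 in T minus MMA. Rpl7a, a large subunit protein, had signals of 157727 (MMA), 125147 (LLS), 118105 (LMA) and 103088 (T), a T minus MMA difference of -0.83.

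Rps15a and Rps7 were higher in T than in MMA. Rps15a, a small subunit protein, had signals of 86904 (MMA), 109103 (LLS), 75533 (LMA) and 128965 (T). T was highest and LMA lowest, and the T minus MMA difference was 0.35 (spot SE 0.02), positive in all 8 settings. Rps7, also of the small subunit, had 46942 (MMA), 56709 (LLS), 43082 (LMA) and 68275 (T), a T minus MMA difference of 0.32. Rplp1, a protein of the acidic stalk that recruits elongation factors, had 139727 (MMA), 112523 (LLS), 96109 (LMA) and 160042 (T). After scaling its T minus MMA difference was -0.02, with a sign that depended on the setting (-0.13 to 0.45), while T minus LLS was 0.40 and positive in all 8 settings.

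In LLS minus LMA the highest cytosolic members were Rpl36a at 0.70 (spot SE 0.03), Rpl34 at 0.70 (spot SE 0.01) and Rpl26 at 0.69, all of the large subunit. Rpl36a had signals of 92639 in LLS and 63323 in LMA. Rpl13a ran the other way: this large subunit protein, known in addition as part of an interferon-responsive translational silencing complex in human cells, had 43614 in LLS and 57881 in LMA. Its difference was -0.26 and negative in all 8 settings, and in LMA minus MMA it was 0.10, with Rpl39l 1 of 2 cytosolic genes above 0 there under the 75th percentile scaling.

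Several paralogs departed from the rest of the set. Rpl39l, a copy of Rpl39 known for high expression in mouse testis, where it takes the place of Rpl39 in the ribosome of spermatocytes, had signals of 10.8 (MMA, not well above background), 27.3 (LLS), 31.1 (LMA) and 309 (T). It was therefore high in T alone, at least 12.0-fold higher in T than in MMA and 10.5-fold higher in T than in LLS after the 75th percentile scaling. After normexp its log2 differences were smaller, at 2.03 and 1.94. Its parent Rpl39 differed by 0.21 and 0.20 on the log2 scale. Under the 75th percentile scaling Rpl39l and Rps4l were the only cytosolic members at least 2-fold apart in T minus MMA. There 18.3% of all genes were as much higher and 14% as much lower. Over the 8 settings Rps4l lay between -1.14 and -0.75 in T minus MMA, and Rps2 between -1.32 and -0.52.

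Rps4l, a copy of Rps4x, had signals of 9515 (MMA), 7679 (LLS), 10600 (LMA) and 5021 (T). T was lowest, with a T minus MMA difference of -1.14, while Rps4x differed by 0.02. Rpl22l1, a paralog of Rpl22 that can take its place in the ribosome, had 40421 (MMA), 40560 (LLS), 28667 (LMA) and 64022 (T). T was highest, and the difference was 0.45 in T minus MMA and 0.55 in T minus LLS, against -0.01 and 0.05 for Rpl22. In LLS minus LMA the pair was close, at 0.65 for Rpl22l1 and 0.64 for Rpl22.

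Rps27l, a paralog of Rps27 known as a target of p53 in human cells, had signals of 37762 (MMA), 29298 (LLS), 21963 (LMA) and 33526 (T). LMA was lowest, and LMA minus MMA was -1.05, against -0.36 for Rps27. It was the only cytosolic difference of at least 2-fold in that comparison (7.29% of all genes were as much lower). Both Rps27l probes were lower there, at -1.05 and -1.09. The Rps27 value comes from the probe placed on chromosome 9, where Rps27l also lies, so what that probe reads is not settled. Rpl7l1, a paralog of Rpl7 known in human cells to act in assembly of the large subunit, had 1304 (MMA), 989 (LLS), 925 (LMA) and 773 (T), a T minus MMA difference of -0.97 against 0.03 for Rpl7. Leaving out the paralogs changed the cytosolic T minus MMA median little (-0.15 over 77 genes).

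**Figure D5:**
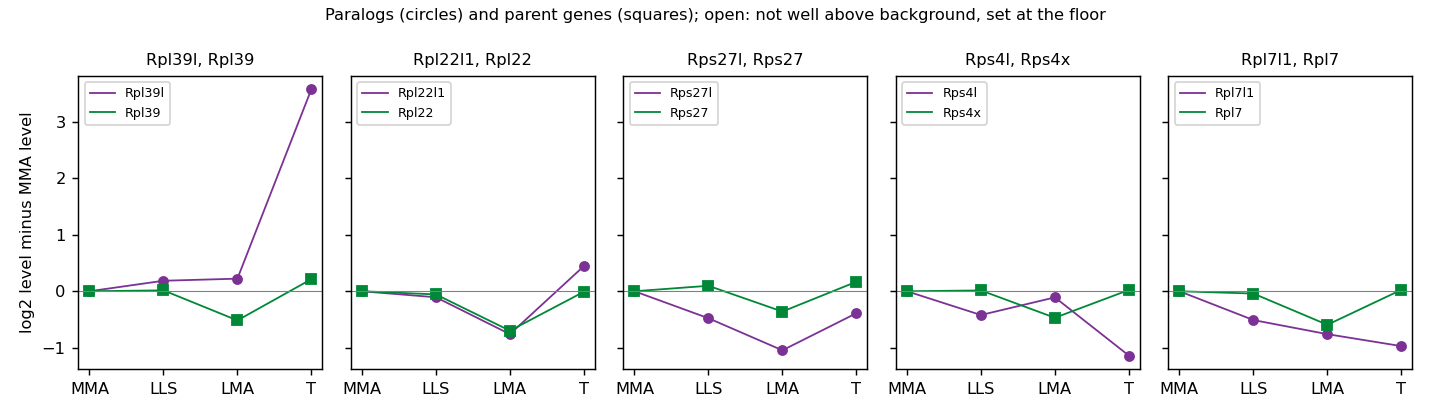
The log2 level minus the same probe's MMA level is plotted by tissue for 5 paralogs (circles) and their parent genes (squares), with open symbols for values not well above background. Rpl39l stands at 3.58 in T, Rps4l and Rpl7l1 are at -1.14 and -0.97 in T, and the parent genes lie between -0.01 and 0.21 in T.

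In T minus MMA the quartiles of the mitochondrial members were -1.004 and -0.38, and those of the cytosolic members -0.30 and 0.02. The lowest mitochondrial member was Mrpl34, a large subunit protein, with signals of 9828 (MMA), 6062 (LLS), 6372 (LMA) and 3441 (T). MMA was highest and T lowest, and the T minus MMA difference was -1.73 and at or below -1.35 in all 8 settings. Mrpl12, the large subunit protein also reported to bind the mitochondrial RNA polymerase of human cells, had 24133 (MMA), 13063 (LLS), 14138 (LMA) and 11491 (T). MMA was highest, and the difference was -1.29 in T minus MMA and -1.04 in LMA minus MMA. Mrps27, a small subunit protein, had 1701 (MMA), 1278 (LLS), 1356 (LMA) and 814 (T), a T minus MMA difference of -1.28.

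Mrps18b is 1 of 3 mammalian Mrps18 variants. It had signals of 15141 (MMA), 7128 (LLS), 7654 (LMA) and 7186 (T), so that MMA was alone high and the difference from it was -1.29 in T, -1.20 in LLS and -1.25 in LMA. Mrps18a was likewise highest in MMA, in all 8 settings, with a T minus MMA difference of -1.16. Mrps18c departed from both, at -0.07 in T minus MMA, and had 9338 (MMA), 11029 (LLS), 7954 (LMA) and 10336 (T). Mrps18c was among the highest mitochondrial members in LLS minus LMA, at 0.62, where Mrps18a was at 0.05.

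A few mitochondrial members were higher in T. Mrpl33, a small protein of the large subunit, had signals of 18734 (MMA), 22942 (LLS), 16312 (LMA) and 30934 (T). T was highest and LMA lowest, and the difference was 0.51 in T minus MMA and 0.65 in LLS minus LMA, positive in all 8 settings. Mrps33 and Mrpl41 were higher in T than in MMA, by 0.28 and 0.19, in all 8 settings. Mrps14 was at 0.36 with its brightest probe (signal 5190 in T, 3475 in MMA), but its dimmer probe gave -0.91 (71.1 in T, 115 in MMA).

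Of genes with more than 1 probe well above background on all arrays, 43 of 59 cytosolic and 26 of 28 mitochondrial genes had every such probe in 1 direction in T minus MMA. The cytosolic count was lowest in T minus LLS, at 35 of 59, with 25 of 28 mitochondrial genes. In LLS minus MMA the counts were 45 of 59 and 24 of 28, in LMA minus MMA 58 of 59 and 23 of 28, and in LLS minus LMA 50 of 59 and 19 of 28. Across genes, probe GC content correlated weakly with the T minus MMA difference (Pearson r of -0.18 over 81 cytosolic and -0.19 over 77 mitochondrial genes).

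Genes that build and use the ribosome were listed apart from the members. Of 41 genes of ribosome assembly and rRNA transcription, 34 were at least 1.5-fold lower and 0 higher in T minus MMA, against 27.3% and 26.3% of all genes, and the median was -1.22 (-1.22 to -0.88 over the 8 settings), against -0.10 for all genes. The median was -0.87 in LLS minus MMA and -0.98 in LMA minus MMA. Nolc1, a nucleolar phosphoprotein, had signals of 20330 (MMA), 7683 (LLS), 7908 (LMA) and 4477 (T), a T minus MMA difference of -2.40. Bop1, a factor of large subunit assembly, differed by -2.26. The highest of the list were Utp18 at 0.02 (close to background, with signals of 32.3 in MMA and 38.1 in T) and Polr1d at -0.15. The assembly genes thus differed from MMA by more than the cytosolic ribosomal proteins did, but not at equal brightness. Neither this list nor those below were read against other genes of their brightness.

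Translation factors lay between, with a T minus MMA median of -0.63 and 20 of 37 genes at least 1.5-fold lower, against 27.3% of all genes. Their extremes were Eif3b at -1.54 and Eif3d at -1.44, subunits of the initiation factor eIF3, and Eif4a2, an RNA helicase, at 0.52. Of 32 genes of mitochondrial translation and transcription, 15 lay at least 1.5-fold below MMA and 2 above it, against 27.3% and 26.3% of all genes. The count below MMA was 6 to 15 over the 8 settings, and the median was -0.51 (-0.51 to -0.25). Nars2, a mitochondrial asparaginyl-tRNA synthetase, was highest at 0.86.

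Mitochondrial ribosomal proteins whose array symbols fall outside the naming pattern had medians close to those of their set. For 6 of them (Dap3, Ptcd3, Chchd1, Aurkaip1, Gadd45gip1 and Mrpl58) the median was -0.53 in T minus MMA and -0.63 in LMA minus MMA, against -0.63 and -0.59 for the mitochondrial set. The 6 were spread in T minus MMA, from -1.26 (Ptcd3) to -0.10 (Aurkaip1).

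Of 18 genes of growth control, 4 were at least 1.5-fold higher and 4 lower in T minus MMA, counts close to the 26.3% and 27.3% of all genes. Mycn, a Myc-family factor, had signals of 18420 (MMA), 7181 (LLS), 5662 (LMA) and 1222 (T), a T minus MMA difference of -4.13. Deptor, an inhibitor of mTOR, was at 3.14. Of 10 regulators of mitochondrial biogenesis, 4 were higher and 3 lower at 1.5-fold in T minus MMA, against the same 26.3% and 27.3% of all genes. Ppargc1a, a coactivator of respiratory genes, had 43.7 (MMA), 217 (LLS), 67.9 (LMA) and 335 (T), a difference of 2.72, and Gabpb1, a subunit of the ETS-family factor GABP, was at -1.45.

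The promoters of the members were searched for short motifs, because members of a set mostly lay in 1 direction in several comparisons. RefSeq windows (GRCm38.p6, 250 bases before to 50 after the start) were at hand for 63 cytosolic and 68 mitochondrial genes, and both strands were read. The ETS-family motif CCGGAAG stood in 41.3% of cytosolic and 36.8% of mitochondrial windows, against 9.93% of all 27025 genes. AAGATGGCG, bound by YY1, stood in 6.35% and 11.8%, against 1.64%. TCTCGCGA stood in 17.5% and 1.47%, against 1.13%, and the tract CTCTTTCC in 15.9% and 1.47%, against 3.57%. GCATGCGC, the core bound by NRF1, stood in 4.76% and 11.8%, against 3.05%. TATAAA stood in 11.1% and 7.35%, against 15.7%, and CACGTG in 9.52% and 7.35%, against 8.09%.

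A stretch from 150 bases before to 20 after the start is shown for Rpl9 (chr5:65391412-65391581, minus strand) and Mrpl39 (chr16:84735225-84735394, minus strand), the members nearest their set's median in T minus MMA, and for Rps6 (chr4:86857348-86857517, minus strand), chosen after its motifs were seen. Each reads 5′ to 3′ along the gene, and capitals mark the first 5 motifs named above. Where TCTCGCGA or GCATGCGC overlaps its own reverse complement, the capitals run on over both.
Rpl9: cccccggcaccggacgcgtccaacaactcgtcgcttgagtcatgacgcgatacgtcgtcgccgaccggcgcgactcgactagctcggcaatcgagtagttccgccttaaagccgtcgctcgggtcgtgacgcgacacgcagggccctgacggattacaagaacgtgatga
Rps6: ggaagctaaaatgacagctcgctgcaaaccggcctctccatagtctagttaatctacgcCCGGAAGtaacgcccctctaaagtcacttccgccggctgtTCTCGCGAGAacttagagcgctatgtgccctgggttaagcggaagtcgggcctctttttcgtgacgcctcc
Mrpl39: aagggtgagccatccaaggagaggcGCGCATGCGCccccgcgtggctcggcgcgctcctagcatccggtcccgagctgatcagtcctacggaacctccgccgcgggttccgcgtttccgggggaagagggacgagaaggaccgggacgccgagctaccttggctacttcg
Rps6 holds the ETS-family motif and TCTCGCGA on both strands, Mrpl39 the NRF1 motif on both strands, and Rpl9 none of these 5 motifs in this stretch. T minus MMA was -0.15 for Rpl9, -0.36 for Rps6 and -0.63 for Mrpl39.

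Cell composition and division differed between the pools along with these results. The summed signal of 12 proliferation markers was 196875 (MMA), 147288 (LLS), 153599 (LMA) and 90235 (T). In T minus MMA, 11 of 12 were at least 1.5-fold lower (8 to 11 over the 8 settings), against 27.3% of all genes. The sum of 12 skeletal muscle markers was 1130 (MMA, 6 of 12 above background), 23152 (LLS), 52636 (LMA) and 522885 (T). Markers of 6 further kinds of cell (arch mesenchyme, epithelium, primitive erythroid cells, endothelium, macrophages and neurons) also differed, with T minus MMA medians between -3.45 and 3.27. In LLS minus LMA, the epithelial median was 2.22 and the arch mesenchyme median -1.63. The labels mention cerebellum in the extraction, and 3 or 4 of 8 cerebellum markers were above background in each tissue, with summed signals of 249 (MMA), 779 (LLS), 1766 (LMA) and 274 (T). Pcp2 alone gave 584 in LLS and 1560 in LMA, and Atoh1, Gabra6, Calb1 and Neurod1 were not well above background in any tissue. The part of these cells in the ribosomal protein differences was not tested.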

How the data were processed

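The authors deposited spot intensity as written by Agilent Feature Extraction 10.7.1.1 per the file headers (9.5.1.1 in the submitters' processing notes), from Cy3-labelled RNA on single-colour arrays. A second deposited table holds linear intensity per probe, already normalized between arrays by a method not given in the sources used here. Each array had 62976 spots, 59305 of them not controls. Between 57.0% (MMA) and 62.9% (LMA) of these were well above background, and 0 were saturated.

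Flagged spots were left out and repeated spots averaged. From each log2 processed signal the 75th percentile of its array was subtracted (between 422 for MMA and 507 for LMA). A gene was compared where at least 1 tissue of the pair had its brightest probe well above background, and genes were counted by size alone, since 1 array per tissue allows no test. Probes were named through RefSeq, and positions are those of the array headers (mm9). The named genes are the 3 highest and 3 lowest of each set in each comparison, members at least 2-fold apart, the 3 brightest members, the paralogs with their parent genes and the undetected members, with the 2 highest and lowest of each further list in T minus MMA and LLS minus LMA. Rpl7a, Mrps18a and the promoter genes were added, and not all named genes are described. The members and lists were chosen with earlier results of these data known. Alternatives used limma 3.58.1 in R 4.3.3 for quantile normalization, cyclic loess and normexp (offset 50). The counting was tested on simulated data.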

Additional observations from a re-analysis of the deposited data

How the results depend on the processing

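Each of 15 medians (the cytosolic set, the mitochondrial set and the first minus the second, in 5 comparisons) was recomputed under 7 alternatives. Of the 105 values, 57 moved by less than the SD of a single-spot difference over all 291 repeated probes (0.061 to 0.065), 41 moved by more and 7 changed sign; normexp, no floor and the median over a gene's probes moved none beyond that SD. All 7 sign changes were in the cytosolic set: T minus MMA became 0.10 after quantile normalization, 0.32 after cyclic loess, 0.038 with the percentile of probes detected on all arrays and 0.095 in the deposited value table, and LLS minus MMA became 0.092, 0.14 and 0.090 under the first, second and last of these. The cause was not tested. In the order T minus MMA, T minus LLS, LLS minus MMA, LMA minus MMA and LLS minus LMA, mitochondrial medians were -0.26, -0.14, -0.18, -0.32 and 0.10 after quantile normalization, -0.25, -0.070, -0.23, -0.32 and 0.060 after cyclic loess, and -0.26, -0.14, -0.19, -0.32 and 0.10 in the value table; the detected percentile gave -0.44, -0.18, -0.32 and -0.46 in the first 4. Cytosolic medians in LMA minus MMA were -0.022 after quantile normalization, -0.013 after loess, -0.40 with the detected percentile and -0.038 in the value table, and in LLS minus LMA 0.10 after quantile normalization, 0.12 after loess and 0.10 in the value table. Cytosolic T minus LLS was 0.20 after loess and 0.10 with the detected percentile, which gave -0.046 in LLS minus MMA. The cytosolic minus the mitochondrial median in T minus MMA was 0.36 after quantile normalization, 0.57 after loess and 0.35 in the value table, in LMA minus MMA 0.30, 0.31 and 0.29, and in LLS minus LMA 0.00033, 0.058 and 0.00017; in T minus LLS it was 0.16 after quantile normalization and 0.15 in the value table, and in LLS minus MMA 0.37 after loess. Over all genes the T minus MMA median was 0.19 after loess, against -0.10.

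Counts at 1.5-fold depended more on the scaling, with 58 moved by over 1.5 times and 82 not. After quantile normalization, mitochondrial genes lower by 1.5-fold numbered 26 in T minus MMA, 4 in LLS minus MMA and 9 in LMA minus MMA, cytosolic genes lower in LMA minus MMA numbered 2, and 0 genes of either set were higher in LLS minus LMA. No paired analysis was possible because each tissue has 1 array, and for the same reason no replicate could be left out.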

Other observations

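Dimmer probes of 2 mitochondrial members gave signal in 1 tissue only. The second probe of Mrpl23 had a signal of 280 in T and was not well above background in MMA, LLS or LMA, at 5.03, 6.04 and 9.34, while the brightest probe of the same gene was lower in T than in MMA by 0.49 on the log2 scale. A probe of Mrps18b had 216 in LLS and was not well above background in MMA, LMA or T, at 5.03, 4.46 and 6.21, while 3 other probes of that gene differed between -1.61 and -1.26 in T minus MMA. Neither probe was the brightest of its gene, so neither entered the values above, except in the median over a gene's probes, where Mrpl23 was at 1.48 in T minus MMA.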
